A study of Rattus norvegicus with 12 samples.

Results

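GP7TB is a tumorigenic rat liver line, derived from clonal subpopulations of the diploid epithelial line WB-F344 after repeated exposure to the alkylating carcinogen MNNG. The response of these tumor cells to arginine withdrawal was measured on 6 arrays, chosen by their labels from the 12 of the series, and the other arrays carry WB-F344 (normal) cells. Growing cells were moved for 18 hours to a custom medium (CEM) that held arginine HCl at 0.168 g/l (arginine-sufficient, titles 7, 9 and 11) or none (arginine-deficient, titles 8, 10 and 12), with 5% fetal bovine serum in both. The serum was not dialyzed, and what arginine it carried was not measured. Each array is 1 culture of 1 established line, and there were 3 in each of the 2 groups.

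Arginine is a building block of protein and the source of nitric oxide, creatine, ornithine and, through ornithine, polyamines. When an amino acid runs short, uncharged tRNA activates the kinase GCN2, which phosphorylates eIF2alpha, slows general translation and raises translation of the transcription factor ATF4. ATF4 and its partners of the C/EBP family bind composite elements in genes for amino acid synthesis, amino acid transport and tRNA charging, while mTORC1, a kinase complex that amino acids activate at the lysosome, controls translation, ribosome assembly and autophagy.

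The labelled origin was set against marker genes. Of 17 hepatocyte markers, 15 are on the array and 3 (Apob, Cyp2e1 and Pck1) were bright enough to be tested. Albumin (Alb) had signals of 123 to 177, Hnf4a, a master regulator of hepatocytes, 90.0 to 167 and Apoa1 4.50 to 13.0. These defining hepatocyte genes thus lay near or under the level counted as expressed below. Krt8, a simple epithelial keratin, had 5692 to 11223 and the mesenchymal filament gene Vim 10354 to 15657, while Cdh1, which encodes E-cadherin, had 5.10 to 8.30. Bright enough to be tested were 2 of 8 biliary and oval cell markers and 3 of 8 general epithelial markers (Krt8, Tjp1 and Dsp). So were 4 of 10 mesenchymal and stellate cell markers (Vim, Acta2, Col1a1 and S100a4). Among markers of other cells, 1 of 9 leukocyte genes (Cd14), 0 of 6 endothelial and 0 of 4 erythroid genes were bright enough to be tested, and the pan-leukocyte gene Ptprc had 21.4 to 36.1.

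Levels are Microarray Suite 5.0 signals, which are linear, and differences are log2 signal without arginine minus log2 signal with it. The array's signal at which the highest 54% begin, 146.9 to 182.5, is called the expressed threshold here. A probe set was tested when it lay above that level on at least 3 of the 6 arrays, which kept 8754 probe sets for 6607 genes. Signals of 1 group correlated at 0.921 to 0.97 across probe sets, which are not independent, and those of different groups at 0.892 to 0.957. Gapdh had a ratio of its 3' to its 5' probe sets, which tracks RNA degradation, of 1.09 to 1.23. The Gapdh ratio was higher in the arginine-deficient array of all 3 title pairs, while that of Actb went from 1.28 to 1.28 in pair 7-8, from 1.25 to 1.21 in pair 9-10 and from 1.01 to 1.63 in pair 11-12. The part of RNA quality in the results was not tested. The arrays of each title pair (7-8, 9-10 and 11-12) were run next to each other, and the run records enter trypsin for pairs 7-8 and 11-12 and not for pair 9-10. Arrays 8 and 9 are of another chip lot than the rest.

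Without arginine, 634 probe sets rose and 693 fell, which are 7.24% and 7.92% of those tested (limma with the title pair as a block, Benjamini-Hochberg adjusted p at most 0.05). On 1 probe set per gene, 505 genes rose (7.64%) and 521 fell (7.89%). Most changes were moderate, with a median of 0.67 among rises and -0.71 among falls, and 119 rises and 146 falls reached a log2 size of 1. The direction was the same in all 3 pairs for 633 of the rises and for 693 of the falls. A call with the title pair as a block nearly requires this, so it adds no support. The 2 groups did not overlap for 483 of the rises and 541 of the falls. Among all 8754 tested probe sets, called or not, this held for 901 that were higher without arginine and 1227 that were lower. The largest rises and falls named below were picked only where the groups did not overlap. For those genes the lack of overlap was fixed by the choice and adds no support. Of the rises 19 lay above the expressed threshold on every arginine-deficient array and on no arginine-sufficient one, and 22 of the falls showed the opposite. Such probe sets met the filter of at least 3 arrays only through their brighter group. These counts thus do not show genes switched on or off. RNA was taken from whole cultures, so fewer cells of a kind and less RNA per cell cannot be told apart.

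The counts rest on the pairing. Without the block 115 probe sets rose and 91 fell, all of them also called with it, and on 1 probe set per gene these were 86 genes (1.3%) and 69 genes (1.04%). With chip lot as the block 96 rose and 58 fell. Median centring of the arrays moved the split from 47.8% to 58.5% rises (847 rose and 602 fell). Leaving out 1 pair gave 723 calls without pair 7-8, 384 without pair 9-10 and 1154 without pair 11-12, and 336 probe sets (190 rises and 146 falls) were called in all 3 of these fits and in the full one. Below, a gene that "passed" did so with the block, and the counts of each list without the block are given in parentheses, rises before falls where both are given.

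**Figure D1:**
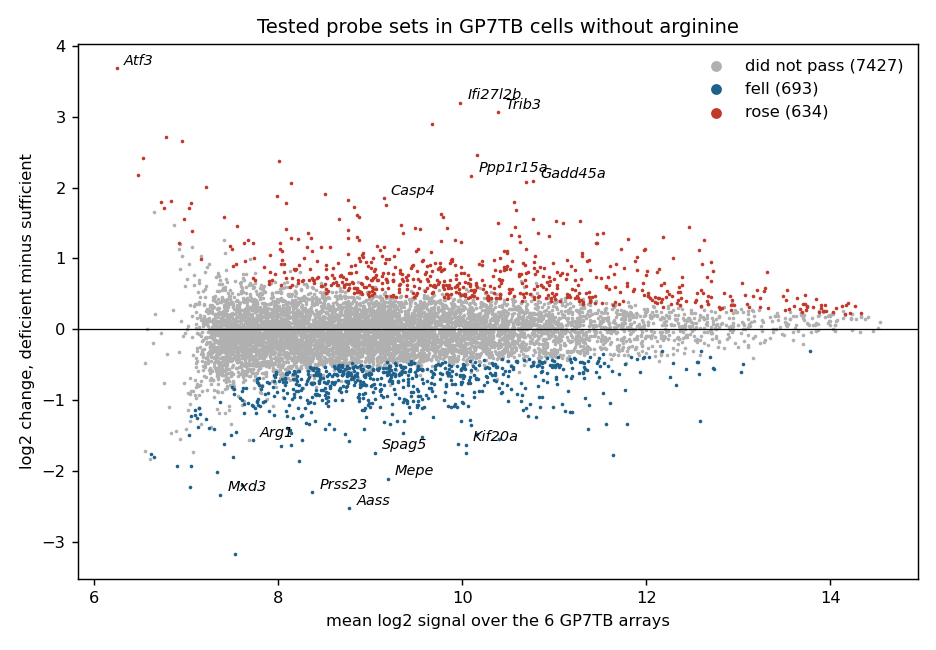
Log2 change without arginine (vertical) against mean log2 signal over the 6 GP7TB arrays (horizontal), 1 point per tested probe set, colored by whether it rose (634), fell (693) or did not pass. The genes named on the plot are among the 15 largest rises and 15 largest falls, and Trib3 and Ifi27l2b stand above 3 while Aass and Prss23 lie below -2.

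Regulators of the amino acid response rose together. Of 23 tested genes of the ATF4 network and its stress regulators, 15 rose (9 without the block), 0 fell and 8 did not pass, and the median log2 change was 0.76 against -0.04 over all 6607 genes. Within chip lots 1 and 2 the median was 0.67 and 0.81, where lot 2 is only array 8 against array 9, from different title pairs. Atf4 itself had 4275, 4950 and 4387 on the arginine-sufficient arrays 7, 9 and 11 and 8943, 7842 and 9007 on the arginine-deficient arrays 8, 10 and 12, the order used throughout. Every arginine-deficient array lay above every arginine-sufficient one, and the rise was 0.92 ± 0.10 (SE, n = 3 arrays per group; limma adjusted p = 0.0008). Atf4 was added to the named genes after its values were seen.

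Trib3 encodes a pseudokinase that ATF4 induces and that damps ATF4 and AKT signaling. Its brightest probe set read 484, 520 and 399 with arginine and 3751, 4063 and 3863 without. The groups were far apart and each was tight. The rise was 3.07 ± 0.13 (adjusted p = 6.94e-06), and the other probe sets of the gene gave 2.91 and 2.46. Atf3, a stress-induced repressor of the same family, read 50.8, 9.90 and 18.8 with arginine, all under the expressed threshold, and 422, 292 and 164 without. Since its arginine-sufficient signals give only a bound, the rise was at least 1.63-fold between means of 26.5 and 293 (adjusted p = 0.00439).

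Ddit3, which encodes the pro-apoptotic factor CHOP, read 325, 189 and 251 with arginine and 1051, 759 and 702 without. The groups did not overlap, and it rose by 1.73 ± 0.15 (adjusted p = 0.000276). Ppp1r15a encodes GADD34, which directs a phosphatase to eIF2alpha and so restores translation. It read 448, 599 and 518 against 2701, 2199 and 2110, a rise of 2.17 ± 0.16 (adjusted p = 0.000122). Nupr1, a small stress-induced chromatin protein, rose by 1.83 ± 0.15, and Chac1, which degrades glutathione, by 1.55 ± 0.12. Other members that rose were Atf5, Vegfa, Stc2, Cebpg, Tsc22d3, Xbp1, Cebpb and Eif2s1. Of those that did not pass, Eif2s2, a subunit of eIF2, had 0.19 ± 0.10 (adjusted p = 0.219), and Cebpd, a C/EBP factor, had -0.24 ± 0.16 (adjusted p = 0.34). All 6 named members that rose also passed without the block.

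**Figure D2:**
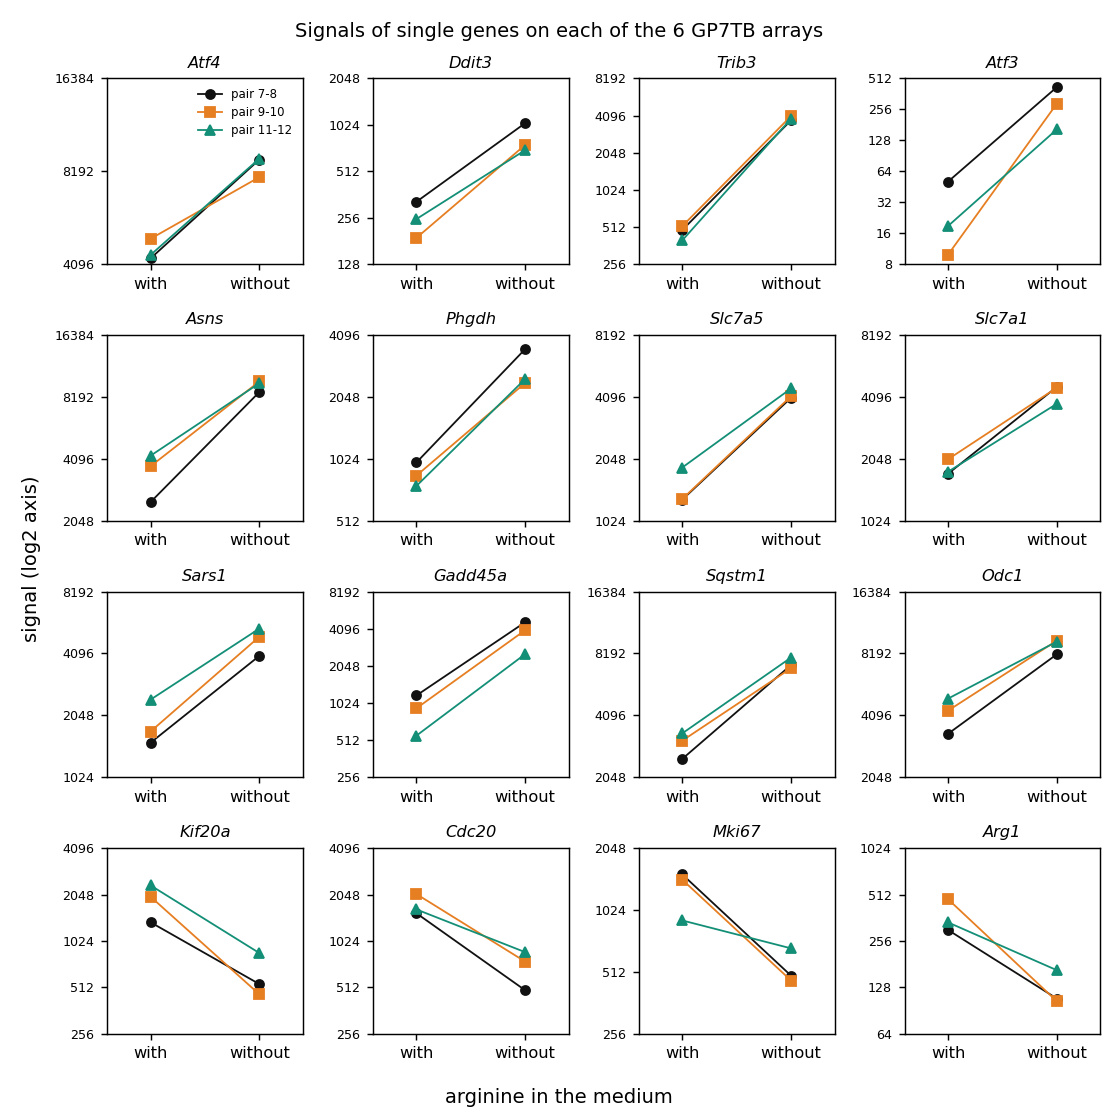
Signals of 16 genes on the 6 GP7TB arrays, with lines joining the arrays of a title pair from arginine-sufficient to arginine-deficient (vertical axis on a log2 scale). Trib3 went from 399 to 520 with arginine to 3751 to 4063 without, while Arg1 and the mitotic genes Kif20a, Cdc20 and Mki67 slope down in every pair.

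Enzymes that make non-essential amino acids and one-carbon units followed. Of 19 tested genes for serine, asparagine, proline and one-carbon synthesis, 11 rose (8 without the block) and 0 fell, with a median of 0.47. Phgdh, the first enzyme of serine synthesis, read 983, 848 and 755 with arginine and 3502, 2396 and 2505 without. The lowest arginine-deficient signal was above the highest arginine-sufficient one, and the rise was 1.69 ± 0.12 (adjusted p = 0.000122). Psph, the last enzyme of the same route, rose by 1.36 ± 0.13 and the middle one, Psat1, by 0.82 ± 0.08. Asns, asparagine synthetase, was already bright, with 2522, 3768 and 4240, and read 8656, 9743 and 9551 without arginine. Its groups did not overlap either, and it rose by 1.44 ± 0.12 (adjusted p = 0.00017).

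Mthfd2, a mitochondrial folate enzyme, read 1186, 1349 and 1378 with arginine and 3459, 3733 and 3863 without, and rose (adjusted p = 0.000122). Cth, which makes cysteine from cystathionine, rose by 1.88 ± 0.18, though it lay above the expressed threshold on only 1 arginine-sufficient array. Aldh18a1, which commits glutamate to proline and ornithine, rose by 0.84 ± 0.11. Several bright members did not pass. The mitochondrial aminotransferase Got2 had 0.02 ± 0.08 (adjusted p = 0.924), glutamine synthetase (Glul) -0.33 ± 0.11 (adjusted p = 0.0674), the S-adenosylmethionine synthetase subunit Mat2a -0.20 ± 0.11 (adjusted p = 0.251) and the cytosolic folate enzyme Mthfd1 -0.22 ± 0.12 (adjusted p = 0.264). The cytosolic aminotransferase Got1, in contrast to these values, rose by 0.61 ± 0.12 (adjusted p = 0.0104).

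Among 13 tested amino acid transporters, 6 rose and 1 fell (4 and 1 without the block), and the median was only 0.13. Slc7a1 encodes CAT-1, the main arginine transporter of most cells. It read 1733, 2038 and 1772 with arginine and 4586, 4544 and 3795 without. Every arginine-deficient signal lay well above the arginine-sufficient ones, and the rise was 1.22 ± 0.11 (adjusted p = 0.000298), with 0.89 ± 0.14 on a further probe set. Slc7a5, the light chain of the leucine transporter LAT1, read 1296, 1306 and 1858 against 4056, 4130 and 4502 and rose by 1.53 ± 0.12 (adjusted p = 0.000155). Its heavy chain, Slc3a2, rose by 1.01 ± 0.11, the glycine transporter Slc6a9 by 1.42 ± 0.13 and the neutral amino acid carriers Slc38a2 and Slc1a5 by 0.84 ± 0.13 and 0.58 ± 0.14. Slc6a6, the taurine transporter, went the other way and fell by 1.16 ± 0.15 on 1 probe set and by 1.55 ± 0.12 on another. Slc7a6, an arginine and leucine exchanger, had 0.13 ± 0.15 (adjusted p = 0.625), and the mitochondrial ornithine carrier Slc25a15 had 0.03 ± 0.15 (adjusted p = 0.925).

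Cytosolic aminoacyl-tRNA synthetases, which load amino acids onto tRNA, moved together. Of the 22 tested members of the list 21 had a value above 0 and 16 rose (10 without the block) with a median of 0.74. The list, called the tRNA synthetases here, also holds Aimp1, Aimp2 and Eef1e1, which are accessory proteins and not synthetases. Of these Aimp1 (0.89) and Aimp2 (0.62) rose and Eef1e1 (0.33) did not pass. Sars1, the seryl-tRNA synthetase, read 1508, 1709 and 2443 with arginine and 3989, 4945 and 5414 without, with no overlap, and rose by 1.36 ± 0.11 (adjusted p = 0.000185). Yars1 (tyrosine) rose by 1.13 ± 0.11, Eprs1 (glutamate and proline) by 1.07 ± 0.13, Vars1 (valine) by 1.06 ± 0.18, Aars1 (alanine) by 1.02 ± 0.10 and Wars1 (tryptophan) by 0.98 ± 0.13. The enzyme for arginine itself, Rars1, was singled out after its values were seen. It read 2105, 1937 and 1923 with arginine and 3115, 2724 and 2888 without, a rise of 0.55 ± 0.11 (adjusted p = 0.01, and 0.0756 without the block), so its size was below the median of its list. Members that did not pass included Kars1 (lysine) at 0.37 ± 0.11 (adjusted p = 0.0517) and Qars1 (glutamine) at 0.10 ± 0.11 (adjusted p = 0.583).

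The promoters of these genes were searched for a core of the C/EBP-ATF response element. RefSeq windows on the GRCr8 assembly were found for 5586 of the 6607 tested genes, and the 250 bases before each start were searched on both strands for TGATGNAA, where N is any base. The element was present in 1.75% of all tested promoters, in 5.56% of those of genes that rose (24 of 432) and in 0.922% of those of genes that fell (4 of 434). It stood in 25.0% of the promoters of the tested genes of the tRNA synthetase list (5 of 20) and in 25.0% of those of the ATF4 network (5 of 20, and 3 of the 14 that rose). It stood in 1 of 17 promoters of serine and asparagine synthesis (5.88%) and in 1 of 12 of the transporters (8.33%). These shares are descriptions of letters, not of bound sites. Nars1, which rose by 0.90, and the mitosis gene Plk4, which fell, also hold the element and are not shown. The stretches around the matches of Trib3, Nupr1, Chac1, Got1, Slc7a1, Aars1, Iars1, Mars1 and Tars1, all of which rose, are shown because they carry the element. Each runs 5' to 3' along its gene, with the match in capitals and in reverse complement where the element lies on the opposite strand.
Trib3, chr3:161275534-161275580, minus strand: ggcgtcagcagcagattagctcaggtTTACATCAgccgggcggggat
Nupr1, chr1:190645923-190645982, minus strand: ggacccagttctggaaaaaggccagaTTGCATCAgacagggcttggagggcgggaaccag
Chac1, chr3:126795938-126795997, plus strand: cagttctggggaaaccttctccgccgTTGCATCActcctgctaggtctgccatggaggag
Got1, chr1:252330005-252330064, minus strand: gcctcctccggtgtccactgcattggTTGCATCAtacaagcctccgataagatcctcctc
Slc7a1, chr12:11664432-11664487, plus strand: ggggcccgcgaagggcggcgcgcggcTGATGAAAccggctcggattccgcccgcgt
Aars1, chr19:55908344-55908403, plus strand: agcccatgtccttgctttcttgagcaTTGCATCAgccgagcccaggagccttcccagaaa
Iars1, chr17:15193653-15193702, minus strand: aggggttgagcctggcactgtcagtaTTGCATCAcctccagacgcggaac
Mars1, chr7:65023754-65023796, minus strand: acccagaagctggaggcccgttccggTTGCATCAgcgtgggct
Tars1, chr2:62114803-62114855, minus strand: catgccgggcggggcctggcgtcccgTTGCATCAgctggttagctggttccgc

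In these windows the match began 17 bases before the start in Mars1, 21 in Trib3, 24 in Iars1, 27 in Tars1 and 30 in Slc7a1, and 167 bases before it in Chac1 and Got1. Iars1, Mars1 and Tars1, the isoleucine, methionine and threonine enzymes, rose by 0.71 ± 0.13, 0.76 ± 0.11 and 0.66 ± 0.14. Sars1, Phgdh and Asns, whose rises were larger, hold no match in this window, from which nothing follows about their regulation.

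**Figure D3:**
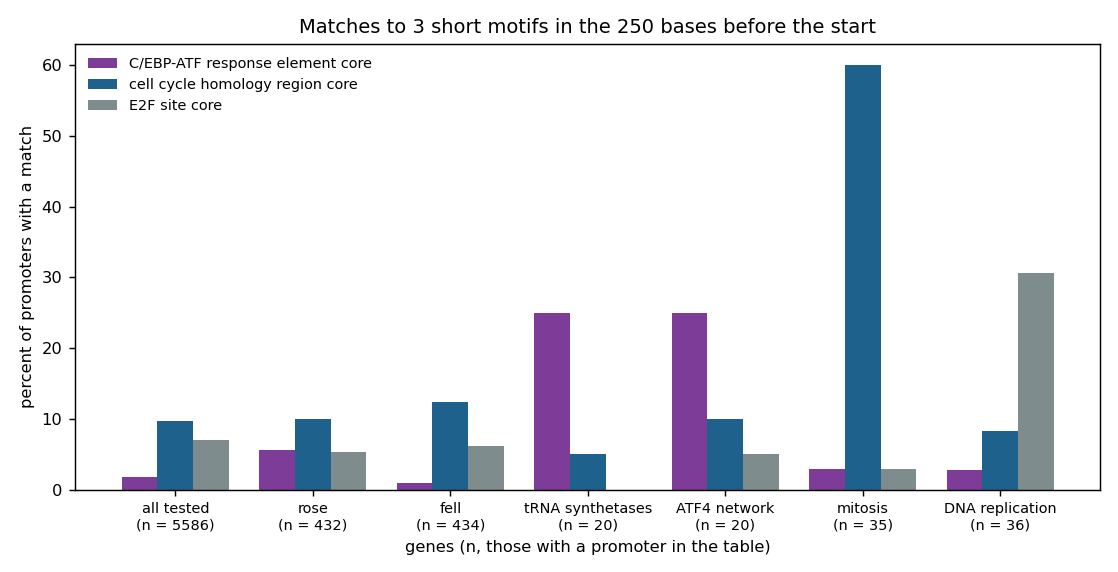
Percent of promoters with a match to each of 3 short motifs in the 250 bases before the start, for all tested genes, genes that rose, genes that fell and 4 gene lists (n, genes with a promoter in the table). The C/EBP-ATF core stands highest in the tRNA synthetases and the ATF4 network (25.0%, against 1.75% of all tested genes) and the cell cycle homology region core in mitosis (60.0%, against 9.76%).

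Enzymes that use arginine itself did not move one way. Of 13 tested genes for the urea cycle and arginine use, 2 rose and 4 fell (1 and 2 without the block), and the median was 0.08. Arg1, the arginase that splits arginine into urea and ornithine, read 302, 478 and 338 with arginine and 108, 104 and 166 without. All 3 arginine-deficient signals were lower than all arginine-sufficient ones, and 1 of them lay above the expressed threshold. It fell by 1.57 ± 0.25 (adjusted p = 0.00439). Oat, which turns ornithine toward glutamate and proline, fell by 0.76 ± 0.16, Aldh4a1, a later step of proline breakdown, by 0.94 ± 0.13 and Gamt, the second enzyme of creatine synthesis, by 0.83 ± 0.15. Asl, which releases arginine from argininosuccinate, read 185, 196 and 284 against 445, 303 and 434 and rose by 0.84 ± 0.19 (adjusted p = 0.0187, and 0.11 without the block). Prmt3, an arginine methyltransferase of ribosomal proteins, rose by 1.27 ± 0.24, with 2 of 3 arginine-sufficient arrays above the expressed threshold. Other methyltransferases had values of 0.36 ± 0.13 for Prmt5 (adjusted p = 0.0801) and 0.27 ± 0.12 for Carm1 (adjusted p = 0.165).

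In polyamine synthesis 2 of 12 tested genes rose and 0 fell (1 and 0 without the block). Odc1, the ornithine decarboxylase that opens the pathway, read 3335, 4322 and 4945 with arginine and 8127, 9470 and 9365 without. The groups were well apart, and the rise was 1.11 ± 0.10 (adjusted p = 0.000224). Sat1, which acetylates polyamines for export, also rose, by 0.97 ± 0.14. The bright genes Oaz1, the antizyme that targets ODC, and Srm, spermidine synthase, had 0.16 ± 0.06 (adjusted p = 0.131) and 0.04 ± 0.11 (adjusted p = 0.856).

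Genes of mitosis made up the largest group of falls among the 33 lists. Of 39 tested members 30 fell (14 without the block), 0 rose, 38 had a value below 0, and the median was -0.93. Median changes within pairs 7-8, 9-10 and 11-12 were -0.96, -0.89 and -0.65. Within chip lot 1 and chip lot 2 they were -0.72 and -1.19, where lot 2 is again only array 8 against array 9. Kif20a, a kinesin of the central spindle, read 1355, 1986 and 2350 with arginine and 538, 462 and 856 without. No arginine-deficient array reached the lowest arginine-sufficient one, and it fell by 1.63 ± 0.16 (adjusted p = 0.00051). Spag5, which holds spindle poles and kinetochores together, read 1044, 1089 and 810 against 244, 253 and 397 and fell by 1.74 ± 0.21 (adjusted p = 0.00122). Cdc20, the activator of the anaphase-promoting complex, fell by 1.35 ± 0.16 on 1 probe set and by 1.10 ± 0.14 on another. Plk4, the kinase that starts centriole duplication, had signals of 117, 98.7 and 107 without arginine, all under the expressed threshold, so that its fall was at least 1.91-fold between means of 308 and 108 (adjusted p = 0.00485).

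Separase (Espl1), which cuts the ring between sister chromatids, fell by 1.33 ± 0.19, and the condensin subunit Ncapd2 by 1.24 ± 0.14. The proliferation marker Mki67, named after its values were seen, read 1527, 1439 and 912 against 491, 465 and 667 and fell by 1.24 ± 0.22 (adjusted p = 0.00669). Its arrays of pair 11-12 were closest to each other, yet the groups did not overlap. The mitotic kinase Plk1 fell by 1.09 ± 0.15, and Foxm1, the transcription factor that drives G2 and M phase genes, by 0.94 ± 0.14. Members that did not pass were Cdc25b, Ckap5, Cdk1, Mad2l1, Hmmr, Ccnb1, Kifc1, Stmn1 and Bub3. Cdk1, the mitotic kinase itself, had -0.41 ± 0.12 (adjusted p = 0.0548), and its partner Ccnb1 had -0.30 ± 0.12 (adjusted p = 0.129), whereas the related Ccnb2 fell by 1.01 ± 0.13 (adjusted p = 0.00165).

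Promoters of mitotic genes often carry a cell cycle homology region, through which the DREAM and MuvB complexes act. Its core, TTTGAA, was found in 60.0% of the promoters of the tested mitosis genes (21 of 35), in 65.4% of those that fell (17 of 26) and in 9.76% of all tested promoters. Among all genes that fell the share was 12.4% and among those that rose 9.95%. Stretches from 6 genes that fell show where it lies, with the match in capitals and in reverse complement where it lies on the opposite strand.
Ccnb2, chr8:79981670-79981727, minus strand: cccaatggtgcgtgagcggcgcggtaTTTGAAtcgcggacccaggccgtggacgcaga
Cdc20, chr5:137255819-137255876, minus strand: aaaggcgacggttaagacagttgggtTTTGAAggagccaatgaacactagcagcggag
Spag5, chr10:63696803-63696835, plus strand: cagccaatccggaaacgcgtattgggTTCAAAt
Birc5, chr10:103572112-103572145, plus strand: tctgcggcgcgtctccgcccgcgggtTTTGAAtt
Cks2, chr17:13727520-13727564, minus strand: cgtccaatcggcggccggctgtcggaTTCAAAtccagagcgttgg
Top2a, chr10:84473094-84473141, minus strand: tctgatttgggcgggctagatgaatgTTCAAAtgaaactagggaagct

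The match stood 7 bases before the start in Spag5, 8 in Birc5, 19 in Cks2, 22 in Top2a, 43 in Ccnb2 and 51 in Cdc20. Birc5, an inhibitor of apoptosis that guides the chromosomal passenger complex, fell by 0.88 ± 0.14, Cks2, a subunit of CDK complexes, by 1.23 ± 0.16 and the DNA untangling enzyme Top2a by 0.96 ± 0.19, with 1.49 ± 0.19 on a further probe set. These genes were shown for their matches.

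Genes of DNA replication and nucleotide supply changed less. Of 40 tested members 8 fell (1 without the block) and 0 rose, with a median of -0.26. The median was -0.44 in pair 7-8, -0.14 in pair 9-10 and -0.03 in pair 11-12, and it was -0.015 without array 8. Over all tested genes the medians of these pairs were -0.05, -0.02 and -0.03, so pair 11-12 showed no shift of the list. Tk1, the thymidine kinase of S phase, read 2194, 2591 and 2578 with arginine and 605, 1592 and 1718 without. The lowest signal by far was that of array 8, and the fall was 1.05 ± 0.22 (adjusted p = 0.0129, and 0.17 without the block). Chaf1a, which loads histones behind the fork, read 501, 464 and 531 against 52.2, 240 and 325, with array 8 lowest again, and fell by 1.64 ± 0.41 (adjusted p = 0.0264). Rpa3, a subunit of the single-strand binding complex, fell by 1.19 ± 0.16 and was the member that also passed without the block. Ccne1, the G1/S cyclin, fell by 0.84 ± 0.24 and the polymerase subunit Pole by 0.78 ± 0.15. Pcna, the sliding clamp, had 0.05 ± 0.10 (adjusted p = 0.803), and the helicase subunit Mcm6 had -0.05 ± 0.13 (adjusted p = 0.836). A core of the E2F site, GCGGGAA, was found in 30.6% of the promoters of the tested replication genes (11 of 36) and in 2.86% of those for mitosis, against 7.04% of all tested. Among the replication genes that fell it was in 1 of 7, and among all genes that fell and rose in 6.22% and 5.32%.

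**Figure D4:**
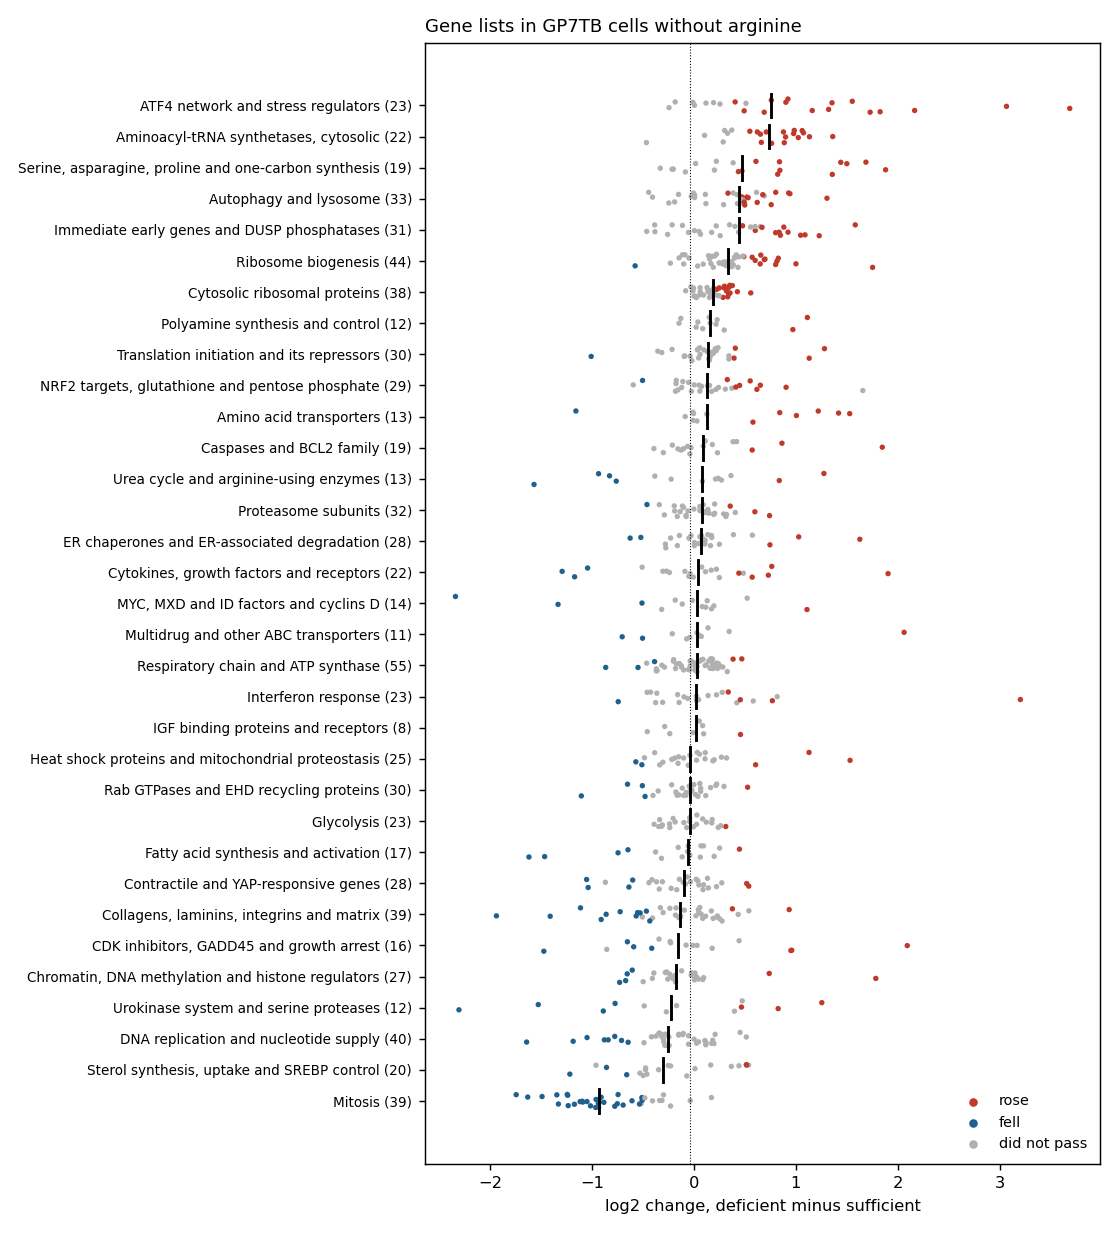
Log2 change of every tested member of 33 gene lists in GP7TB cells without arginine, 1 point per gene, ordered by list median (black bars, number tested in parentheses) with the median of all tested genes as a dotted line. Mitosis lies lowest at a median of -0.93 with 30 of 39 members fallen, and the ATF4 network and the tRNA synthetases lie highest at 0.76 and 0.74.

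Single regulators of growth arrest and of MYC passed, some higher and some lower. Gadd45a, a stress-induced brake on the G2 kinase, read 1178, 927 and 557 with arginine and 4631, 3992 and 2553 without. Pair 11-12 was the dimmest in both groups, the differences within pairs were 1.97, 2.11 and 2.20, and the rise was 2.09 ± 0.12 (adjusted p = 1.75e-05). Btg1, an antiproliferative factor, rose by 0.95 ± 0.08 and the noncoding RNA Gas5 by 0.96 ± 0.16. Cdkn2c, the CDK inhibitor p18, fell by 1.47 ± 0.19, and Cdkn1a, the inhibitor p21, had -0.23 ± 0.11 (adjusted p = 0.193). In all, 3 of 16 tested genes of growth arrest rose and 4 fell (2 and 1 without the block), with a median of -0.15. Of 14 tested MYC, MXD, ID and cyclin D genes 1 rose and 3 fell (1 and 1 without it), with a median of 0.03. Over all genes 7.64% rose and 7.89% fell, so 1 rise among 14 is near the share of all genes. Myc read 514, 474 and 495 against 1351, 1044 and 857 and rose by 1.11 ± 0.15 (adjusted p = 0.00207). Mxd3, of the MXD family that competes with MYC for MAX, read 300, 341 and 504 with arginine and 45.7, 94.9 and 91.3 without, where every signal was under the expressed threshold. Its fall was at least 2.36-fold between means of 381 and 77.3 (adjusted p = 0.00101). Id3, an inhibitor of differentiation factors, fell by 1.33 ± 0.22, while Id1 had 0.13 ± 0.09 (adjusted p = 0.369) and cyclin D1 (Ccnd1) 0.20 ± 0.11 (adjusted p = 0.255).

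Immediate early genes and the phosphatases that limit MAP kinases had a median of 0.44, with 12 of 31 tested members risen (3 without the block) and 0 fallen. Dusp1, a phosphatase of p38 and JNK, read 993, 1006 and 1104 with arginine and 2575, 2612 and 2110 without, with no overlap, and rose by 1.23 ± 0.13 (adjusted p = 0.000725). Dusp5, its relative for ERK, rose by 1.58 ± 0.20, the EGF receptor ligands Hbegf and Ereg by 1.09 ± 0.26 and 0.88 ± 0.17, and the AP-1 subunit Fosl1 by 0.92 ± 0.14. The list's medians within pairs were 0.63, 0.46 and 0.11, so pair 11-12 had the smallest. Egr1 had 0.65 ± 0.23 (adjusted p = 0.087). Among 19 tested caspases and BCL2 family genes 3 rose and 0 fell (1 and 0 without the block). Casp12, counted below with the endoplasmic reticulum genes and not here, rose by 1.03 (limma adjusted p = 0.00196, and 0.0877 without the block). Casp4, an inflammatory caspase, read 365, 263 and 278 with arginine and 1643, 838 and 902 without, a rise of 1.85 ± 0.15 (adjusted p = 0.00017), and the survival gene Bcl2l1 rose by 0.57 ± 0.13.

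Autophagy and lysosome genes had a median of 0.45, and 14 of 33 tested members rose (2 without the block) with 0 fallen. Sqstm1 encodes p62, which carries cargo into autophagosomes. Its bright probe set read 2516, 3086 and 3348 with arginine and 7203, 6950 and 7829 without, with no overlap, and rose by 1.30 ± 0.10 (adjusted p = 0.000155). A further probe set of the gene rose by 0.83 ± 0.11 (adjusted p = 0.00217), and the dimmest had 0.05 ± 0.19 (adjusted p = 0.901). Gabarapl1 and Atg12, of the machinery that builds autophagosomes, rose by 0.76 ± 0.13 and 0.94 ± 0.14. The lysosomal proteases Ctsl, Ctsa and Lgmn rose by 0.67 ± 0.09, 0.93 ± 0.21 and 0.80 ± 0.16, whereas Ctsd had 0.11 ± 0.17 (adjusted p = 0.707). Becn1, which starts autophagosome formation, had 0.01 ± 0.12 (adjusted p = 0.985). Only Sqstm1 and Gabarapl1 passed without the block.

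Genes for making ribosomes leaned higher. Of 44 tested ribosome biogenesis genes 12 rose and 1 fell (2 and 0 without the block), with a median of 0.34 and 37 values above 0. Pdcd2, which assists assembly of the small subunit, read 277, 333 and 338 with arginine and 1326, 961 and 939 without, with a wide gap between groups, and rose by 1.75 ± 0.18 (adjusted p = 0.00051). Polr1b, a subunit of RNA polymerase I, rose by 0.83 ± 0.16 and Nop58, of the snoRNA particles, by 0.80 ± 0.12. Of 38 tested cytosolic ribosomal proteins 14 rose by small amounts (0 without the block), with a median of 0.19, among them Rpl13a with 0.56 ± 0.09. Multigene families and pseudogenes can share their probes.

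In translation initiation 4 of 30 tested genes rose and 1 fell (2 and 0 without the block). Eif4ebp1 encodes 4E-BP1, which blocks cap-dependent initiation when mTORC1 is off. It read 2065, 2177 and 2654 against 5532, 5546 and 5574, where the arginine-deficient arrays were almost equal, and rose by 1.28 ± 0.11 (adjusted p = 0.000193). Eif2b3, a subunit of the exchange factor that phosphorylated eIF2 inhibits, rose by 1.13 ± 0.13. Rps6kb1, the mTORC1 target kinase S6K1, fell by 1.01 ± 0.23 (adjusted p = 0.0199, and 0.37 without the block), with 1 of 3 arginine-deficient arrays above the expressed threshold. Bright elongation factors did not pass, with 0.14 ± 0.09 for Eef1a1 (adjusted p = 0.304) and 0.06 ± 0.07 for Eef2 (adjusted p = 0.614).

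Genes for chaperones and protein degradation of the endoplasmic reticulum mostly did not pass. Of 28 tested genes 3 rose, Casp12 among them, and 2 fell (1 and 0 without the block), with a median of 0.07. Herpud1, which helps to degrade misfolded ER proteins, read 408, 613 and 493 against 1193, 1757 and 1729 and rose by 1.63 ± 0.13 (adjusted p = 0.00017). Hspa5, the chaperone BiP, rose by 0.75 ± 0.09 (adjusted p = 0.00115, and 0.076 without the block). Protein disulfide isomerase (P4hb) and calreticulin (Calr) had 0.11 ± 0.09 (adjusted p = 0.426) and 0.07 ± 0.09 (adjusted p = 0.641). Of 25 tested heat shock and mitochondrial proteostasis genes 3 rose and 2 fell (2 and 0 without the block). The mitochondrial protease Lonp1 read 1421, 1006 and 1284 with arginine and 3955, 3712 and 3023 without, and rose by 1.53 ± 0.14 (adjusted p = 0.000298). Hspa9, the mitochondrial HSP70, rose by 1.13 ± 0.12, while the mitochondrial chaperonin Hspd1 had -0.22 ± 0.08 (adjusted p = 0.0915). Of 29 tested NRF2 targets and redox genes 7 rose and 1 fell (0 and 0 without the block, so every call is lost), among them Txnrd1 with 0.55 ± 0.10 and Hmox1 with 0.62 ± 0.13 (adjusted p = 0.0148, and 0.47 without the block).

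Genes of lipid synthesis had more falls than rises, and no call held without the block. Among 20 tested sterol genes 2 rose and 3 fell (0 and 0 without the block; 7.64% of all genes rose and 7.89% fell), with a median of -0.30. Insig1, which holds SREBP in the endoplasmic reticulum, read 535, 488 and 389 with arginine and 352, 112 and 206 without, and fell by 1.22 ± 0.27 (adjusted p = 0.0159, and 0.13 without the block). Dhcr7, the last enzyme of cholesterol synthesis, fell by 0.86 ± 0.19, but the bright enzyme Fdps had 0.01 ± 0.12 (adjusted p = 0.972). In fatty acid synthesis 1 of 17 tested genes rose and 4 fell (0 and 0 without the block). The desaturase Scd2 read 4169, 1607 and 781 against 1425, 272 and 466. Its signals with arginine spread widely and the groups overlapped, and it fell by 1.62 ± 0.27 within pairs (adjusted p = 0.00505, and 0.27 without the block).

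Of 39 tested collagens, laminins, integrins and matrix genes 2 rose and 11 fell (0 and 0 without the block), 22 had a value below 0, and the median was -0.13. Over all 6607 genes 3600 were below 0. Col1a1 fell by 0.91 ± 0.16 and Col6a1 by 1.11 ± 0.25, Sparc, a collagen-binding protein, fell by 0.86 ± 0.17, and the protease Mmp3 rose by 0.93 ± 0.17. Fibronectin (Fn1), among the brightest, had 0.23 ± 0.08 (adjusted p = 0.0949). Of 12 tested genes of the urokinase system and serine proteases 3 rose and 4 fell (0 and 2 without the block). Plau encodes urokinase, which activates plasminogen at the cell surface. It read 1198, 1232 and 1422 with arginine and 332, 524 and 504 without, with no overlap, and fell by 1.53 ± 0.15 (adjusted p = 0.00051), while its receptor Plaur had -0.17 ± 0.16 (adjusted p = 0.508). The inhibitors of urokinase Serpinb2 and Serpine2 rose by 1.25 ± 0.16 and 0.83 ± 0.16. Tgfb3, a TGF-beta ligand, fell by 1.05 ± 0.15 and Smad6, an inhibitor of BMP signaling, by 1.04 ± 0.14. Beside the matrix genes, 2 of the 4 tested mesenchymal and stellate cell markers fell (S100a4 and Col1a1) and 0 rose (0 and 0 without the block), with a median of -0.66 and signals of 10354 to 15657 for Vim and 3.70 to 35.4 for Pdgfrb, and the part of such cells in the matrix falls was not tested. S100a4, a calcium-binding marker of mesenchymal cells, read 6181, 12832 and 11119 against 1186, 5835 and 8614, with overlapping groups, and fell by 1.30 ± 0.28 (adjusted p = 0.0157, and 0.35 without the block).

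Among 22 tested genes for secreted signals and their receptors 5 rose and 3 fell (0 and 3 without the block, so all 5 rises are lost). Il33, an alarmin of epithelial cells, read 3773, 3553 and 3222 against 1130, 1775 and 1886 and fell by 1.17 ± 0.17 (adjusted p = 0.00263). Csf1, the macrophage growth factor, fell by 1.04 ± 0.14 and the vasopressin receptor Avpr1a by 1.29 ± 0.15, and all 3 of these falls also passed without the block. Ptgs2, the inducible cyclooxygenase, rose by 1.90 ± 0.23 (adjusted p = 0.00123, and 0.062 without the block), with 1 of 3 arginine-sufficient arrays above the expressed threshold. Ifi27l2b, of the interferon-inducible 27 family, read 414, 263 and 337 with arginine and 3609, 3190 and 2484 without, a rise of 3.20 ± 0.16 (adjusted p = 1.05e-05). Interferon response genes did not follow it as a list, with 4 of 23 risen, 1 fallen (1 and 0 without the block) and a median of 0.02. Abcb1a, the drug efflux pump P-glycoprotein, had signals of 159, 152 and 109 with arginine, all under the expressed threshold, and of 951, 620 and 323 without. Its rise was at least 3.45-fold between means of 140 and 631 (adjusted p = 0.000539).

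The largest falls among named genes lay outside these lists in part. Aass, the first enzyme of lysine breakdown, read 976, 1188 and 999 with arginine and 134, 167 and 270 without, with 2 of 3 arginine-deficient arrays above the expressed threshold, and fell by 2.53 ± 0.20 (adjusted p = 0.000155). Mepe, a matrix phosphoglycoprotein first known from bone, fell by 2.11 ± 0.37, the sulfotransferase Chst12 by 1.86 ± 0.19, and Dync1i1, a dynein intermediate chain, by 1.65 ± 0.19. Add3, a cytoskeletal adducin, fell at least 1.96-fold (adjusted p = 0.00389). The falls of Aass, Mepe, Chst12, Dync1i1 and Add3 passed without the block as well.

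The remaining lists are given beside the shares of all genes that rose (7.64%) and fell (7.89%). Glycolysis had 1 rise among 23 tested genes (Aldoa, 0.31 ± 0.08), the proteasome 3 rises and 1 fall among 32, and the respiratory chain and ATP synthase 2 rises and 3 falls among 55. IGF binding proteins and receptors had 1 rise among 8 tested genes. None of these calls held without the block. Rab GTPases and EHD proteins had 1 rise and 4 falls among 30 (0 and 0 without the block), and contractile and YAP-responsive genes 2 and 4 among 28 (0 and 2 without it). Chromatin regulators had 2 and 4 among 27 (0 and 1 without it) and ABC transporters 1 and 2 among 11 (1 and 0 without it). These counts are small, and over all genes falls also outnumbered rises (521 against 505), so no lean of a list is read from them. Eno1 (0.24 ± 0.07, adjusted p = 0.0604), Pgk1 (0.08 ± 0.07, adjusted p = 0.433) and Ldha (-0.20 ± 0.08, adjusted p = 0.113) show the scale of changes at high signal. The Rab protein of secretory vesicles Rab3d fell by 1.11 ± 0.13, and the histone deacetylase Hdac1 fell by 0.73 ± 0.13.

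The response of GP7TB was set against that of WB-F344 in a fit of all 12 arrays, with a block for the pair. Among 9741 probe sets the responses differed for 5 (0.0513%), and 1322 had an unadjusted p under 0.05. Prss23, a secreted serine protease, read 747, 943 and 565 with arginine and 123, 152 and 176 without in GP7TB. Of these its signals on arrays 8 and 10 lay under the expressed threshold. In WB-F344 it read 7700, 8760 and 8749 with and 7150, 9016 and 6307 without. The responses of -2.31 and -0.18 differed by -2.13 ± 0.26 (limma adjusted p = 0.0109). Rock2, a kinase of the actomyosin system, read 338, 241 and 145 against 85.3, 23.3 and 25.9 in GP7TB, where no arginine-deficient signal and not the arginine-sufficient one of array 11 reached the expressed threshold, and 493, 738 and 853 against 527, 962 and 881 in WB-F344. The fitted difference was -2.79 (adjusted p = 0.0109), but it rests on signals under the threshold and has no measured size. With low signals raised to the threshold it was -0.74 (adjusted p = 0.228). The other 2 tested probe sets of Rock2 had differences of -0.36 ± 0.54 (adjusted p = 0.821) and -0.31 ± 0.25 (adjusted p = 0.641). Il1rl1, the receptor of IL-33, had 0.73 in GP7TB and -0.97 in WB-F344, and Rgs2, a brake on G protein signaling, -0.18 and 1.06, with adjusted p = 0.037 for both differences, 1.70 ± 0.25 and -1.24 ± 0.18. Without arginine Il1rl1 was dim in WB-F344, with signals of 114, 306 and 146. With low signals raised to the threshold its difference was 1.43 (limma adjusted p = 0.0262). The last, a probe set without a gene symbol, had -1.40 in GP7TB and 0.15 in WB-F344. Without the block 0 of these differences passed and 549 had an unadjusted p under 0.05.

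**Figure D5:**
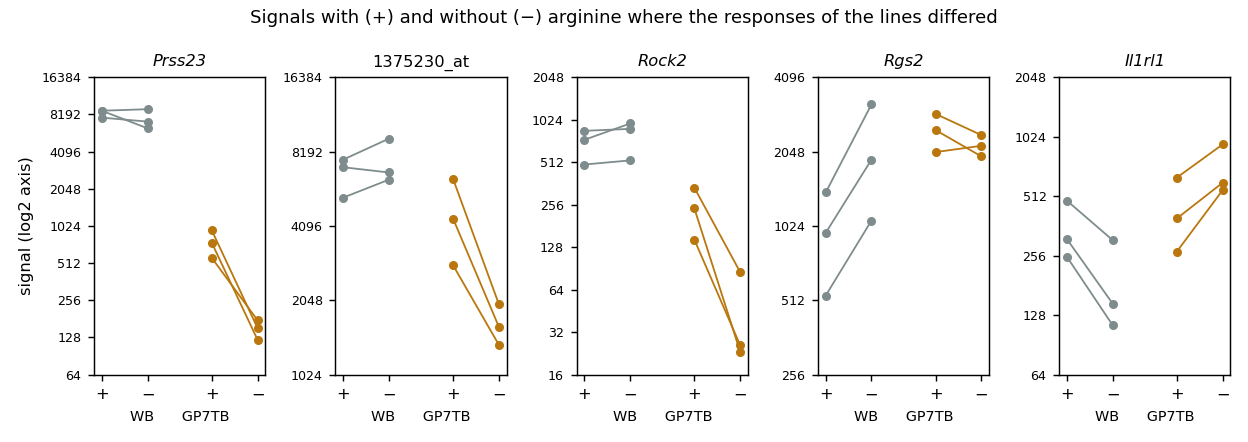
Signals (log2 axis) with (+) and without (-) arginine in WB-F344 and GP7TB for the 5 probe sets whose responses differed, with lines joining the arrays of a pair. For Prss23 the WB-F344 lines are nearly level between 6307 and 9016, and the GP7TB lines drop from 565 to 943 down to 123 to 176. Its signals on GP7TB arrays 8 and 10 lay under the expressed threshold.

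Medians are given for both lines side by side, and the differences between them were not tested. The leading lists are the ATF4 network, the tRNA synthetases, serine and asparagine synthesis, mitosis and DNA replication. The other lists given here were picked from the rest with their values known. The ATF4 network had 0.76 in GP7TB and 0.91 in WB-F344, the tRNA synthetases 0.74 and 0.38, serine and asparagine synthesis 0.47 and 0.48, autophagy and lysosome 0.45 and -0.01, mitosis -0.93 and -0.20, DNA replication -0.26 and -0.22, and sterol synthesis -0.30 and -0.89. Amino acid transporters had 0.13 and 0.46, immediate early genes 0.44 and 0.12, and ribosome biogenesis 0.34 and 0.04. All these medians are over the same genes in both lines, chosen as expressed in GP7TB.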

How the data were processed

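Arrays (Affymetrix RAE230A, 15923 probe sets) carried intensity values that the authors made with Microarray Suite 5.0 and deposited as signals on a linear scale, scaled so that the trimmed mean of each array was 500.1 to 500.2. GeneSpring steps and change calls of the study were not used. Per-array run records were read for chip lot and entries on cell harvest. Gene symbols came from the array's annotation (12783 probe sets with 1 symbol, 311 with several, 2829 with none), of which 12748 were matched by gene identifier and 0 updated. The 57 controls were left out.

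Signals below 1 (14 to 20 per array) were set to 1 and log2 was taken. The filter, the highest 54% of an array on at least 3 of 6 arrays, takes the share the study scored as present in normal cells. limma 3.58.1 in R 4.3.3 was fitted with arginine and the title pair (2 residual degrees of freedom, prior 7.52), empirical Bayes moderation with an intensity trend and Benjamini-Hochberg adjustment over 8754 probe sets, at a threshold of 0.05. Methods describe independent pair-wise experiments, and run records place both arrays of a pair together, but deviations of partners correlated at 0.61, 0.05 and 0.50, so the pairing of 9-10 is not borne out by the data. P-values of the main fit rest on the spread left within title pairs, moderated by variance pooled over probe sets. The pooled part weighs more, with 7.52 prior against 2 residual degrees of freedom. With the spread of each probe set alone, a plain linear model with the pair block called 0 probe sets. The number of arrays limits the precision. A group whose arrays all lay under the expressed threshold gives a bound, as the mean log2 signal of the brighter group against the thresholds of the dimmer one.

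For lists a gene was read from its probe set of highest mean log2 signal. Members and lists were chosen with earlier results of these data known. Named genes are the 15 largest rises and falls with the same direction in all 9 ratios, from each list at most 6 passing and 4 other members, the differences of response and genes the study names for tumor cells, and others are marked or shown for their promoters. The fit was tested on simulated data. Alternatives covered the block, all 12 arrays, filters, low signals, an offset of 16, normalization, moderation, chip lot and leaving out pairs or arrays. Promoters were RefSeq windows on GRCr8. Figures used matplotlib 3.10.9 in Python 3.11.15, with pandas 2.3.3 and numpy 2.4.6. Cell growth assays were not analysed here.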

Additional observations from a re-analysis of the deposited data

Results flagged for a closer look

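The test of the difference between the responses of GP7TB and WB-F344 cells flagged 5 probe sets. The difference, tumor minus normal on the log2 scale, was -2.13 for Prss23, -1.55 for a probe set without a gene symbol, -1.24 for Rgs2 and 1.70 for Il1rl1. With low signals raised to the threshold that of Prss23 was -1.95 (adjusted p = 0.00344, limma) and that of Il1rl1 1.43 (adjusted p = 0.0262, limma). For Rock2 the fitted value was -2.79, which has no measured size because its arginine-deficient GP7TB signals all lay under the expressed threshold, and with low signals raised to the threshold it was -0.74 and did not pass (adjusted p = 0.228, limma). Without GP7TB pair 7-8 or pair 9-10, 1 difference passed. Groups of 3 arrays are too small for a search for single outlying arrays.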

How the results depend on the processing

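None of the 197 named probe sets that passed reversed under an alternative in which it was tested (18 were not tested with the highest 40%). Nearly all called probe sets had 1 direction in every pair, and every alternative reused these arrays. A reversal was thus hardly possible, and its absence adds no support. The 5 leading list medians kept their sign under all alternatives, while the medians of 13 other lists, between -0.04 and 0.13, changed sign under some. For DNA replication a kept sign is not a kept shift. Without array 8 its median was -0.015, above the -0.055 of all tested probe sets. Without the replicate block for the title pair, 206 probe sets changed (115 rises and 91 falls) and 77 of 197 named probe sets still passed. With 12 arrays and no block 207 changed (107 and 100), without a filter on low signals 728 (360 and 368), without an intensity trend 698 (313 and 385) and with chip lot as the block 154 (96 and 58). A plain linear model with the pair block called 0 probe sets (0 rises, 0 falls), with 1598 at an unadjusted p under 0.05. Other settings gave 1079 to 1449 calls. Leaving out pairs, or single arrays without the block, gave 8 to 1154 changed probe sets, 8 to 510 rises and 0 to 644 falls, with the lowest count without array 9, and 28 calls without array 7, 11 without array 10 and 134 without array 11. Over those fits the medians were 0.38 to 0.57 for serine and asparagine synthesis, -1.03 to -0.75 for mitosis and -0.34 to -0.015 for DNA replication. Differences of response numbered 0 without the replicate block, 0 without a filter, 40 with low signals raised to the threshold and 1 to 31 with a pair left out (31 without GP7TB pair 11-12, 13 without WB pair 1-2 and 16 without WB pair 3-4). Over all promoters of the table, tested or not, shares were 3.27% for TGATGNAA, 16.0% for TTTGAA and 3.58% for GCGGGAA. The causes were not tested. Signals near or under the expressed threshold limit what can be said of dim genes, for which fold changes are bounds.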
